A study of Homo sapiens with 12 samples.

Results

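The linker histone H1 genes measured here are the 7 members HIST1H1A, HIST1H1B, HIST1H1C, HIST1H1D, HIST1H1E, HIST1H1T and H1FX, found by their gene names among 43828 gene places in the count tables. RNA was sequenced from CCRF-CEM, a human T lymphoblast leukemia line, in 4 groups of 3 libraries. Cells labelled SLFN11 knockout received camptothecin at 100 nM for 4 h (knockout camptothecin) or the solvent DMSO (knockout DMSO), and the SLFN11-positive wild-type parent received the same drug dose (parent camptothecin) or DMSO (parent DMSO). Camptothecin locks topoisomerase I onto DNA and so stalls replication forks, and SLFN11 is a nuclear protein that sensitizes cancer cells to such damage. The design compared the response to the drug between both genotypes. The labels give neither how the knockout was made, nor whether it is 1 clone, nor whether libraries of a group came from separate cultures, and every p-value below therefore reflects library-to-library spread alone, part of which may be technical.

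Linker histones bind the nucleosome where DNA enters and leaves it and help to fold chromatin into compact fibres. Most somatic H1 proteins come from the replication-dependent genes of the HIST1 cluster, which are transcribed in S phase into short, intronless mRNAs that end in a stem-loop instead of a poly(A) tail and decay when DNA synthesis stops. H1FX is replication-independent and makes a polyadenylated mRNA, and HIST1H1T is known from male germ cells. Whether libraries were made by poly(A) selection or by removal of ribosomal RNA is not given in the sources used here.

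On hg19, 6 of the 7 genes lie on chromosome 6 within 1818 kb. HIST1H1A spans chr6:26017259-26018039, HIST1H1C chr6:26055967-26056698, HIST1H1T chr6:26107639-26108363, HIST1H1E chr6:26156558-26157342, HIST1H1D chr6:26234439-26235215 and HIST1H1B chr6:27834569-27835358. H1FX lies at chr3:129033614-129035119. All 7 were counted as exon only: their intron reads were 0 in all 12 libraries, and total gene reads and reads over unique exon stretches equalled exon reads. Between members, the GENCODE transcripts shared no identical stretch longer than 37 bases (HIST1H1B with HIST1H1E), and the highest pairwise identity was 75.1% (HIST1H1C with HIST1H1D).

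Promoter sequence was read for all 7 members from RefSeq (GRCh38.p14). The 200 bases before the start are shown for 5 of them: HIST1H1A, which differed most between the untreated genotypes, HIST1H1C and HIST1H1E, which moved in opposite directions in the treated parent, HIST1H1T, which had the widest range among the responses, and the replication-independent H1FX. Each runs 5′ to 3′ on the gene's strand, at chr6:26017788-26017987 (minus strand) for HIST1H1A, chr6:26056471-26056670 (minus) for HIST1H1C, chr6:26156129-26156328 (plus) for HIST1H1E, chr6:26108136-26108335 (minus) for HIST1H1T and chr3:129316287-129316486 (minus) for H1FX. Capitals mark matches on either strand to the H1 box known from H1 promoters (AAACACA), to the CCAAT box, or to TATANA, a form of the box that positions many start sites.
HIST1H1A: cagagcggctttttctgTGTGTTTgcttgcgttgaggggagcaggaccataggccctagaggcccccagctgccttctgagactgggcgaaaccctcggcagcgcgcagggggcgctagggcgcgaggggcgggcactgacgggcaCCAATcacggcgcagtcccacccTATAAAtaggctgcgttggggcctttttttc
HIST1H1C: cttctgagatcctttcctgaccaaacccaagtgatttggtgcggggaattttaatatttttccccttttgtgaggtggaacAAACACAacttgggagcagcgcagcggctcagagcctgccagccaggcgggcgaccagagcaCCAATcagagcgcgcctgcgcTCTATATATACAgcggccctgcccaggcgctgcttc
HIST1H1E: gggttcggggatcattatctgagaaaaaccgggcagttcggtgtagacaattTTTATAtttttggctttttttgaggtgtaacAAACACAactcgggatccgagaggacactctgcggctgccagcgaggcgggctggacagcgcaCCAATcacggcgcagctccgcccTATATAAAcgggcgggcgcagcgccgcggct
HIST1H1T: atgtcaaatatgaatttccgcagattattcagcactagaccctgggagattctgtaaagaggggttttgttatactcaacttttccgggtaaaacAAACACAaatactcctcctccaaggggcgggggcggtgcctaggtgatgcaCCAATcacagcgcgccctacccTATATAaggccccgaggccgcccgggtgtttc
H1FX: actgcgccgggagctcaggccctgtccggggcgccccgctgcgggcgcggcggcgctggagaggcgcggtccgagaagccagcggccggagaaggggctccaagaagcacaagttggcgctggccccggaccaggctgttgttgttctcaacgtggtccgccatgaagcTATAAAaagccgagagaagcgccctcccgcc
The H1 box letters AAACACA were found in 6 of the 7 promoter windows of 250 bases before to 50 bases after the start, against 5.64% of 35116 RefSeq promoter windows of that length. The match nearest the start began at -105 in HIST1H1T, at -117 in HIST1H1B and HIST1H1E, and at -119 in HIST1H1C and HIST1H1D, counted back from the transcription start. In HIST1H1A it stood at -183 on the other strand, and the H1FX window held none. CCAAT was found in 6 of 7 windows (34.6% of all), and the longer ACCAATCA, which contains it and was chosen after the sequences had been read, in the same 6 (1.87% of all), at -58 to -54. TATANA was found in all 7 (19.0% of all). These matches describe letters and are no measure of binding.

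Exon reads per library ran from 42439957 to 63606344 in 11 libraries and came to 135592046 in parent DMSO replicate 1, which stood apart from its group in composition too: HIST1H1B and HIST1H1E were highest, and HIST1H1C and H1FX lowest, in that parent DMSO library. SLFN11 transcripts, in exon counts relative to the library total after TMM adjustment (CPM), averaged 89.8 ± 1.72 CPM in knockout camptothecin, 86.9 ± 1.58 in knockout DMSO, 120.2 ± 2.38 in parent camptothecin and 112 ± 4.93 in parent DMSO libraries (SD, n = 3 each). This modest difference in SLFN11 (untreated log2 difference -0.37 ± 0.05, edgeR adjusted p = 0.000133) ended with total gene reads (-0.12), and RNA levels do not check the loss of the protein. All 20 T lymphoblast markers were detected, at a summed 2600 to 2640 CPM in knockout camptothecin, 3320 to 3350 in knockout DMSO, 1950 to 1980 in parent camptothecin and 2780 to 3030 in parent DMSO libraries. Myeloid and erythroid marker sums stayed at or below 1.64 and 1.09 CPM, with HBB at 0. B-lineage sums were 44.7 to 54.5 CPM in knockout libraries and at most 42.8 CPM in parent libraries, with MS4A1 at 0, and epithelial and fibroblast sums 7.94 to 9.34 and 1.94 to 3.24 CPM, with COL1A2 at 0; their part in the H1 results was not tested.

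The 7 members differed widely in level, on the scale of exon reads per kilobase of exon and scaled to library size (RPKM). HIST1H1B, HIST1H1E, HIST1H1C and HIST1H1D formed the abundant class, H1FX was intermediate, and HIST1H1T and HIST1H1A were the scarcest. In parent DMSO libraries the mean levels were 2718 ± 357 RPKM for HIST1H1B, 2412 ± 302 for HIST1H1E, 1919 ± 60.2 for HIST1H1C and 1419.5 ± 28.8 for HIST1H1D (SD, n = 3). HIST1H1B and HIST1H1E overlapped there between libraries, while the other neighbours in this order did not overlap. H1FX followed at 86.7 ± 12.6, HIST1H1T at 3.70 ± 0.460 and HIST1H1A at 2.495 ± 0.107 RPKM.

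The order was the same in knockout DMSO libraries, in knockout camptothecin libraries and in parent DMSO libraries, but HIST1H1C stood above HIST1H1E in parent camptothecin libraries. HIST1H1C had 2275, 2266 and 2256 RPKM there and HIST1H1E had 2026, 1976 and 1965. The abundant 4 genes had 1026 ± 75.4 (HIST1H1B), 891 ± 48.9 (HIST1H1E), 775 ± 58.5 (HIST1H1C) and 526 ± 31.3 RPKM (HIST1H1D) in knockout camptothecin libraries, the lowest group for each. All 7 genes had their lowest group mean in knockout camptothecin libraries; for HIST1H1A, knockout DMSO libraries overlapped that group.

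**Figure D1:**
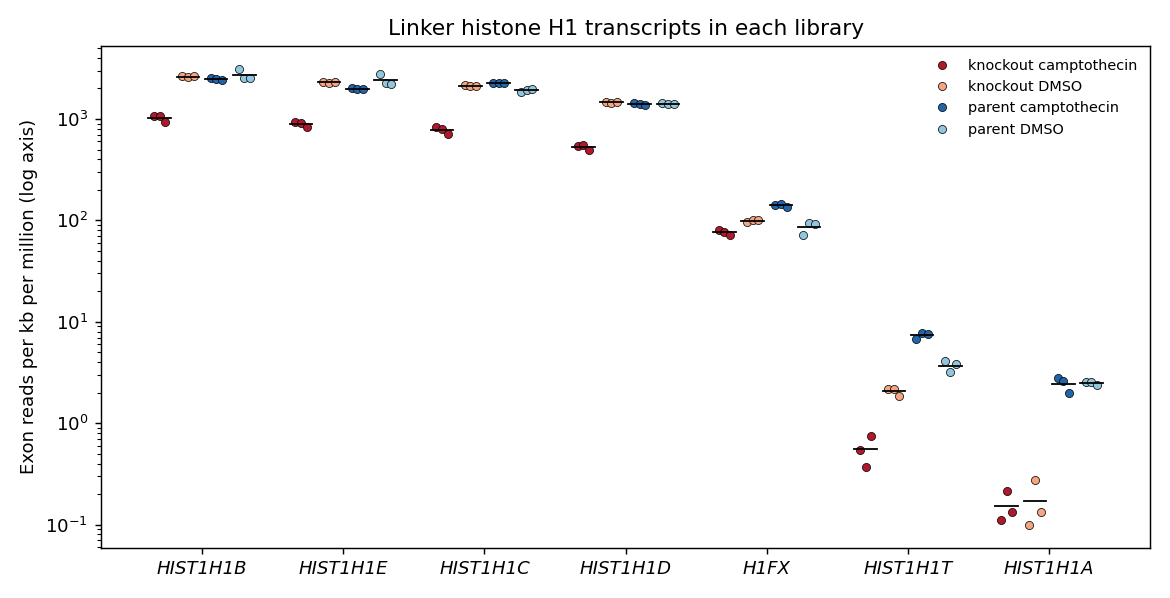
Exon reads per kilobase, scaled to library size (RPKM, vertical log axis), of the 7 H1 genes; each point is a library and each line a group mean (n = 3). The abundant HIST1H1B, HIST1H1E, HIST1H1C and HIST1H1D fall together in knockout camptothecin, whereas HIST1H1A separates knockout from parent libraries with either treatment.

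Camptothecin lowered H1 transcripts in knockout cells and not as a class in parent cells. In the knockout, 6 of 7 members fell and none rose at an edgeR quasi-likelihood adjusted p below 0.05, where 16.6% of the 23546 tested genes were called, 7.3% higher and 9.28% lower. The groups did not overlap for the same 6, against 38.5% of all genes. The median change of the 7 was -1.37 on the log2 scale, against 0.018 for all tested genes. In the parent, 3 members rose (HIST1H1C, HIST1H1T and H1FX) and 1 fell (HIST1H1E), where 33.9% of genes were called, 16.8% higher and 17.1% lower. The groups did not overlap for those 4 members, against 44.8% of all genes. The median of the 7 was -0.01, against 0.013 for all. The response itself was lower in knockout than in parent cells for 6 of 7 members, where 6.32% of genes were called, 1.84% higher and 4.47% lower; HIST1H1A was the exception. In bulk RNA, fewer cells expressing a gene, such as cells in S phase, and less RNA per cell cannot be told apart.

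**Figure D2:**
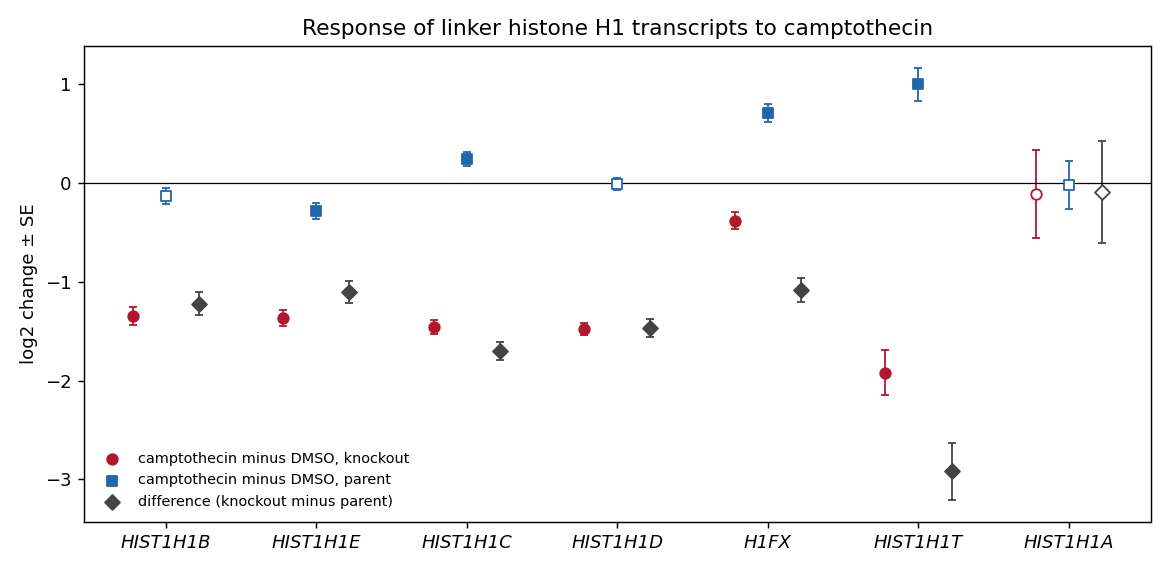
Log2 change ± SE (vertical axis) of the 7 H1 genes with camptothecin in knockout cells (circles), in parent cells (squares) and the difference of both (diamonds); filled symbols passed an edgeR adjusted p below 0.05. The circles of HIST1H1B, HIST1H1E, HIST1H1C and HIST1H1D lie between -1.48 and -1.35, while the squares of these genes lie between -0.28 and 0.24.

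HIST1H1B, the most abundant member, had 852, 837 and 743 CPM in knockout camptothecin libraries, against 2078, 2028 and 2097 CPM in knockout DMSO libraries. It had 1996, 1964 and 1922 CPM in parent camptothecin libraries, against 2473, 1983 and 1985 in parent DMSO libraries. Every treated knockout library lay below every other library, while the parent groups overlapped. The change was -1.35 ± 0.09 log2 in the knockout (2.55-fold lower, edgeR adjusted p = 7.24e-09) and -0.13 ± 0.08 in the parent (adjusted p = 0.258). The response differed by -1.22 ± 0.12 (edgeR adjusted p = 4.18e-06). Without parent DMSO replicate 1, the highest of its group, the parent change was -0.01.

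HIST1H1E, a main H1 of many somatic cells, had 729.5, 712 and 656 CPM in knockout camptothecin libraries, against 1834, 1789 and 1818 CPM in knockout DMSO libraries. In the parent it had 1590.1, 1551 and 1543 CPM with camptothecin, against 2167, 1768 and 1745 CPM with DMSO. Treated libraries lay below DMSO libraries in both genotypes, with a far wider gap in the knockout. It fell by 1.37 ± 0.08 log2 in the knockout (2.59-fold, edgeR adjusted p = 3.28e-09) and by 0.28 ± 0.08 in the parent (1.21-fold, adjusted p = 0.0117). The difference of responses was -1.10 ± 0.11 (edgeR adjusted p = 7.38e-06). The parent call ended when only the parent libraries were fitted (-0.27, adjusted p = 0.0628), and without parent DMSO replicate 1 the change was -0.17 (adjusted p = 0.00366).

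HIST1H1C, whose protein is known to leave the nucleus after DNA double-strand breaks, had 604, 578 and 520.2 CPM in knockout camptothecin libraries, against 1596, 1543 and 1539 CPM in knockout DMSO libraries. In the parent it had 1666, 1659 and 1651 CPM with camptothecin, against 1358, 1411 and 1446 CPM with DMSO. The treated libraries lay below their DMSO libraries in the knockout and above them in the parent, with no overlap in either. The change was -1.46 ± 0.07 log2 in the knockout (2.75-fold lower, edgeR adjusted p = 2.06e-10) and 0.24 ± 0.07 in the parent (1.18-fold higher, adjusted p = 0.00926). The difference of responses was -1.70 ± 0.09 (edgeR adjusted p = 2.62e-09), the lowest estimate among the 4 abundant genes.

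HIST1H1D had 419, 426 and 381 CPM in knockout camptothecin libraries, against 1143, 1121 and 1150.4 CPM in knockout DMSO libraries. In the parent it had 1128, 1097 and 1070.3 CPM with camptothecin, against 1126, 1102 and 1081 CPM with DMSO. The knockout groups stood apart and the parent groups lay on top of each other. It fell by 1.48 ± 0.06 log2 in the knockout (2.79-fold, edgeR adjusted p = 1.03e-10), against a change of -0.01 ± 0.06 in the parent (adjusted p = 0.958). The responses differed by -1.47 ± 0.09 (edgeR adjusted p = 7.98e-09).

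HIST1H1T, the testis H1, was scarce in these lymphoblasts but had the largest estimated changes among the drug responses of the 7 members. It had 18, 16 and 26 reads in knockout camptothecin libraries, against 81, 80 and 65 in knockout DMSO libraries, or 0.392, 0.270 and 0.543 CPM against 1.57, 1.58 and 1.36 CPM. In the parent it had 314, 350 and 302 reads with camptothecin, against 348, 121 and 129 with DMSO, or 4.95, 5.67 and 5.53 CPM against 2.96, 2.31 and 2.78 CPM. The 4 groups did not overlap in CPM: treated parent libraries were highest and treated knockout libraries lowest. It fell by 1.92 ± 0.23 log2 in the knockout (3.78-fold, edgeR adjusted p = 1.34e-05). It rose by 1.0 ± 0.17 in the parent (edgeR adjusted p = 0.000254), a difference of -2.92 ± 0.29 (adjusted p = 4.37e-06).

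H1FX, the replication-independent member, had 121, 117 and 108 CPM in knockout camptothecin libraries, against 146, 151 and 153 CPM in knockout DMSO libraries. In the parent it had 214, 220.3 and 204 CPM with camptothecin, against 109, 143 and 140.2 CPM with DMSO. The groups did not overlap within either genotype, and the parent gap was the wider. It fell by 0.38 ± 0.09 log2 in the knockout (1.3-fold, edgeR adjusted p = 0.00524) and rose by 0.71 ± 0.09 in the parent (1.63-fold, adjusted p = 6.41e-06). The responses differed by -1.08 ± 0.12 (edgeR adjusted p = 1.91e-05). Without parent DMSO replicate 1, the lowest of its group, the parent change was 0.59 and the difference -0.96, both still called. The knockout call ended with scaling by library size alone (-0.23, adjusted p = 0.132), under which the median of all genes moved to 0.17.

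HIST1H1A, an H1 known from thymus and testis, showed no detectable drug response in either genotype, and its reads were fewer in the knockout with either treatment. It had 4, 10 and 5 reads in knockout camptothecin libraries and 4, 11 and 5 in knockout DMSO libraries. It had 140, 125 and 84 reads in parent camptothecin libraries and 236, 104 and 86 in parent DMSO libraries. Every parent library held more than every knockout library. The means were 0.120 ± 0.043 CPM in knockout camptothecin, 0.133 ± 0.074 in knockout DMSO, 1.92 ± 0.345 in parent camptothecin and 1.95 ± 0.084 in parent DMSO libraries (SD, n = 3 each). The camptothecin change was -0.11 ± 0.45 log2 in the knockout (edgeR adjusted p = 0.917) and -0.02 ± 0.24 in the parent (adjusted p = 0.966), and the counts in the knockout are too low to measure a moderate change. The 4 reads of knockout DMSO replicate 1 gave 0.0778 CPM with an exact 95% interval of 0.0212 to 0.199 CPM, which covers counting error only. HIST1H1A passed the filter on low counts only through the parent libraries, where it is high, so its difference between the genotypes is given as a description and carries no test.

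In untreated cells, HIST1H1T was lower in the knockout than in the parent by -0.84 ± 0.19 log2 (1.79-fold, edgeR adjusted p = 0.00482), and the other 5 members besides HIST1H1A were not called, where 15.7% of tested genes were called, 8.26% higher and 7.44% lower. The estimate for HIST1H1A was -3.85 log2 (14.4-fold lower). The 4 abundant genes had differences between -0.06 (HIST1H1E, adjusted p = 0.658) and 0.15 (HIST1H1C, adjusted p = 0.141, edgeR). HIST1H1C did not overlap between the untreated genotypes, nor did H1FX (0.20 ± 0.09, edgeR adjusted p = 0.131), where 32.5% of all genes did not overlap. HIST1H1C was called with scaling by library size alone (0.24, edgeR adjusted p = 0.0129).

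Genes near HIST1H1A on chromosome 6 were chosen for their position after their values were seen. TRIM38 (log2 difference -0.34, edgeR adjusted p = 0.0164) and the H2A gene HIST1H2AB (-0.21, adjusted p = 0.0376) were called lower in untreated knockout than in untreated parent cells. Of all tested genes, 15.7% were called in that comparison, 8.26% higher and 7.44% lower. HIST1H1A aside, the other tested genes from TRIM38 to HIST1H1C were not called with all libraries. These include the 2 core histone genes next to HIST1H1A. HIST1H3A, an H3 gene at chr6:26020717-26021185, had 191.85 CPM in knockout DMSO and 175.9 CPM in parent DMSO libraries (log2 difference 0.13, edgeR adjusted p = 0.432). HIST1H4A, an H4 gene at chr6:26021906-26022277, had 263 CPM in knockout DMSO and 277 CPM in parent DMSO libraries (-0.07, edgeR adjusted p = 0.821), but without parent DMSO replicate 1 it was called at -0.29 (adjusted p = 0.000362).

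In treated cells, all 6 members besides HIST1H1A were called lower in the knockout than in the parent, where 28.0% of tested genes were called, 13.4% higher and 14.6% lower. These comparisons share libraries with the responses above. HIST1H1T was 13.5-fold lower (-3.76 ± 0.22 log2, edgeR adjusted p = 1.09e-09), and the estimate for HIST1H1A was 15.4-fold lower (-3.94). HIST1H1C, HIST1H1D, HIST1H1B and HIST1H1E were lower by 2.92-, 2.69-, 2.42- and 2.23-fold, with edgeR adjusted p between 3.3e-11 and 1.2e-08. H1FX was 1.85-fold lower (edgeR adjusted p = 6.8e-07). No treated knockout library reached the level of a treated parent library for those 6 members, against 47.4% of all genes without overlap. The groups of HIST1H1A did not overlap either, which is given as a description only.

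Summed over the 7 genes, H1 transcripts came to 2727, 2670.3 and 2408 CPM in knockout camptothecin libraries and 6798, 6634 and 6758 CPM in knockout DMSO libraries. They came to 6600.0, 6499 and 6397 CPM in parent camptothecin libraries and 7237, 6411 and 6402 CPM in parent DMSO libraries. The treated knockout sums lay below all others, which lay close together, so treated knockout cells held 0.387 times the summed H1 level of DMSO-treated knockout cells, against a ratio of 0.972 in the parent. The parent ratio turned to 1.01 without parent DMSO replicate 1. Scaled without TMM, by library totals of gene reads, unique exon reads or exon reads, it was 1.05, 1.06 and 1.06. The H1 reads were the same in all of these counts, so these ratios differ from 0.972 in scaling alone. The knockout ratio was 0.416 to 0.436 under those scalings without TMM and 0.377 to 0.401 with 1 knockout library left out. Summed core histone transcripts of the 64 listed genes had ratios of 0.394 in the knockout and 1.26 in the parent. This sum holds near-identical copies such as HIST2H2AA3 and HIST2H2AA4, at 3379 and 3441 CPM in parent camptothecin and 1407.3 and 1412 CPM in parent DMSO libraries. Whether reads were counted for both copies was not tested, which limits this sum and the percentages that follow. H1 reads amounted to 14.9 ± 0.306% of core histone reads in knockout camptothecin libraries and 15.3 ± 0.115% in knockout DMSO libraries. They amounted to 11.4 ± 0.1% in parent camptothecin and 14.7 ± 0.808% in parent DMSO libraries (SD, n = 3 each). The H1 share of histone reads was thus lowest in treated parent libraries, where core histone reads were highest.

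**Figure D3:**
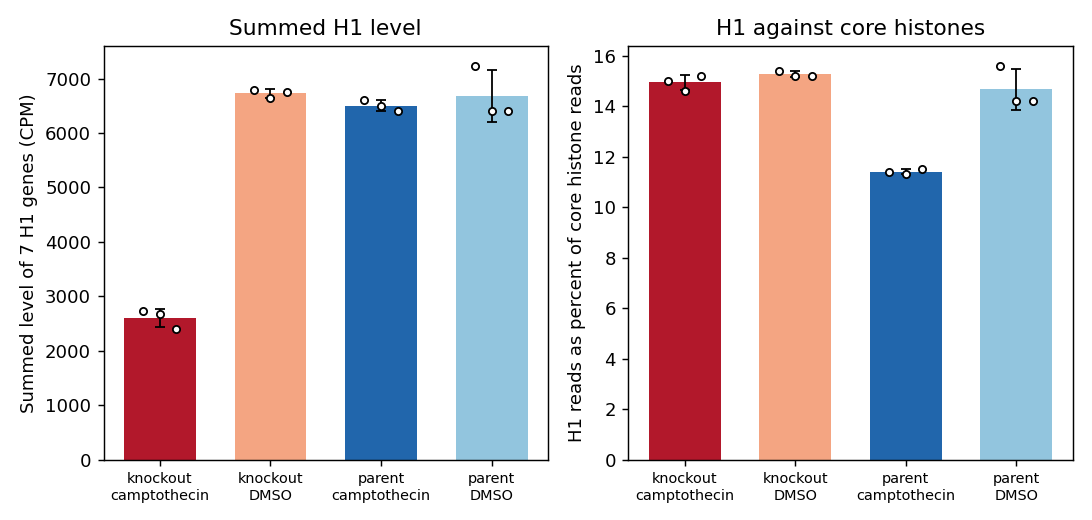
Left, summed level of the 7 H1 genes in CPM; right, H1 reads as a percentage of the reads of the 64 core histone genes; bars are group means, error bars SD, and points libraries (n = 3). The sum is 2602 CPM in knockout camptothecin, the lowest group, while the percentage is lowest, at 11.4%, in parent camptothecin.

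The make-up of the H1 transcript pool is given as each gene's share of the summed RPKM. HIST1H1B held 31.1% in knockout camptothecin, 30.4% in knockout DMSO, 29.9% in parent camptothecin and 31.7% in parent DMSO libraries. HIST1H1E held 27.0%, 26.8%, 23.9% and 28.1% in the same 4 groups, and HIST1H1C held 23.5%, 24.7%, 27.3% and 22.5%. The exchange between HIST1H1E and HIST1H1C was thus seen in the treated parent. H1FX held 2.32% in knockout camptothecin and 1.15% in knockout DMSO libraries, against 1.70% in parent camptothecin and 1.03% in parent DMSO libraries, so its share was larger with the drug in both genotypes. Its own level fell in the knockout, from 149.8 CPM with DMSO to 115.2 CPM with camptothecin, but less than the abundant genes. In the parent its level rose from 130.6 to 212.9 CPM.

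Core histone genes, which make the nucleosome proteins that H1 binds, were also described as a list. Of 64 listed, 60 were tested. With camptothecin 56 fell and 0 rose in the knockout (median -1.39 log2, against 0.018 for all genes), where 9.28% of all genes fell and 7.3% rose. In the parent 28 rose and 2 fell (median 0.25, against 0.013), where 16.8% of all genes rose and 17.1% fell. The difference of responses was lower for 56 of the 60 (median -1.62), where 4.47% of all genes were called lower and 1.84% higher. Many of these genes have near-identical copies, so counts of single core genes are uncertain. HIST2H2AA4, an H2A gene, averaged 506 ± 38.2 CPM in knockout camptothecin and 1460.1 ± 29.9 CPM in knockout DMSO libraries. It averaged 3441 ± 74.4 CPM in parent camptothecin and 1412 ± 139 CPM in parent DMSO libraries. It fell by 1.53 ± 0.08 log2 in the knockout (edgeR adjusted p = 8.42e-10) and rose by 1.29 ± 0.08 in the parent (adjusted p = 2.62e-09). Its near-identical copy HIST2H2AA3 changed by -1.53 and 1.26 in knockout and parent, HIST1H2AK by -1.68 and 0.83, and HIST1H2BJ by -1.78 and 0.69.

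**Figure D4:**
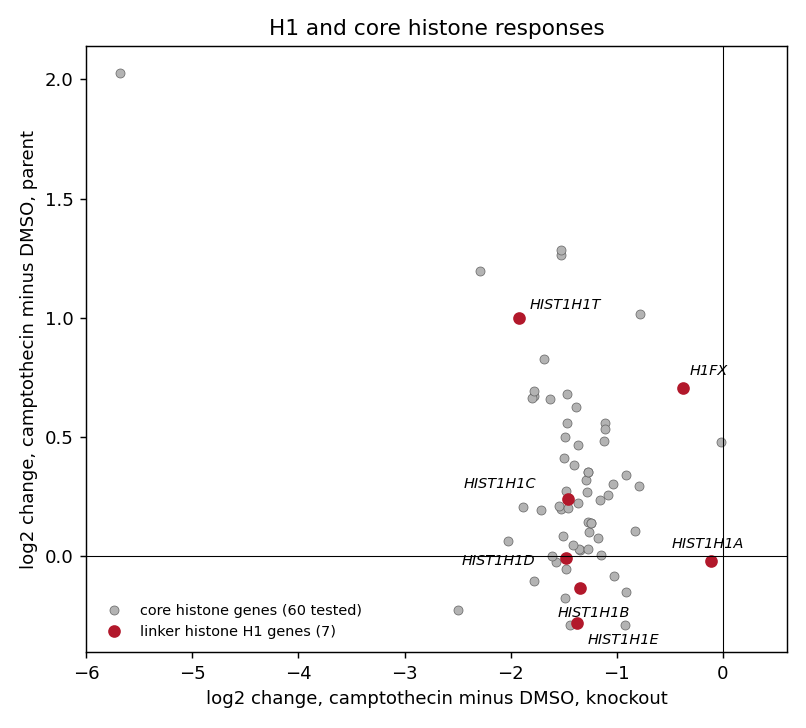
Log2 change with camptothecin in knockout cells (horizontal axis) and in parent cells (vertical axis) for the 7 H1 genes (red) and 60 core histone genes (grey). HIST1H1B, HIST1H1C, HIST1H1D and HIST1H1E lie at -1.48 to -1.35 on the horizontal axis among the core genes, and HIST1H1A lies near the origin; the grey point at -5.68 is HIST1H4G, named after its value was seen, for which 1 knockout DMSO library held 321 of all 417 reads.

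Factors that make and process histone mRNA did not fall as a list. Of 19 tested, 8 rose and 2 fell in the knockout, where 7.3% of all tested genes rose and 9.28% fell. In the parent 10 rose and 3 fell, where 16.8% of all rose and 17.1% fell. SLBP, which binds the histone mRNA stem-loop, rose by 0.60 ± 0.08 log2 in the knockout (edgeR adjusted p = 6.35e-05) and by 0.26 ± 0.08 in the parent (adjusted p = 0.0183). The parent rise was not called when only the parent libraries were fitted (0.27). It was also not called without parent DMSO replicate 2 (0.21, edgeR adjusted p = 0.0837) or 3 (0.19, 0.105). Nor was it called without parent camptothecin replicate 1 (0.25, edgeR adjusted p = 0.0613) or 3 (0.27, 0.0512). The responses of SLBP had a difference of 0.33 ± 0.11 (edgeR adjusted p = 0.103). That difference was called without parent DMSO replicate 1 (0.21, edgeR adjusted p = 0.0242), without parent DMSO replicate 3 (0.41, 0.0431), with library size alone (0.35, 0.02) and with no filter (0.34, 0.0454). With all libraries, the responses of 3 other factors differed between the genotypes, where 6.32% of genes were called. Without parent DMSO replicate 1 the list had 2 called higher and 6 lower, where 14.4% of genes were called. CCNE2, a cyclin that activates CDK2 at the start of S phase, rose by 1.07 in the knockout and by 0.51 in the parent (difference 0.56 ± 0.12, edgeR adjusted p = 0.0117). HINFP, a transcription factor of histone H4 genes, changed by -0.04 in the knockout and by 0.51 in the parent (difference -0.55 ± 0.12, edgeR adjusted p = 0.0124). UPF1, a helicase needed for histone mRNA decay, changed by 0.08 in the knockout and by 0.49 in the parent (difference -0.41 ± 0.09, edgeR adjusted p = 0.00957).

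Genes for proteins that carry, modify or compete with H1 were also counted. Of 14 tested, 3 fell and 0 rose in the knockout, where 9.28% of genes fell and 7.3% rose, and 11 fell and 0 rose in the parent, where 17.1% fell and 16.8% rose. PARP1, which modifies chromatin with ADP-ribose and competes with H1, changed by -0.01 in the knockout and -0.55 in the parent (difference 0.54 ± 0.11, edgeR adjusted p = 0.0076). HMGB1, PTMA and CBX5 fell in the parent by 0.58, 0.77 and 0.31, with differences of 0.41, 0.64 and 0.40 (edgeR adjusted p = 0.161, 0.21 and 0.0617). The PTMA difference was 0.29 (edgeR adjusted p = 0.0023) and the HMGB1 difference 0.21 (0.0314) without parent DMSO replicate 1, and the parent change of PTMA was then -0.42. With no filter, the HMGB1, PTMA and CBX5 differences were all called (0.42, 0.65 and 0.41), the CBX5 difference was also called by DESeq2 (0.41, adjusted p = 0.0194), and with library size alone the CBX5 fall in the parent was not (-0.19, edgeR adjusted p = 0.149). Between 1 and 5 of the 14 differences were called over all alternatives, beside 3.73% to 14.4% of all genes. Among 10 core histone variants, 0 rose and 5 fell in the knockout and 1 rose and 3 fell in the parent, beside the same shares of all genes. The paired H3.3 genes moved in opposite directions in the parent: H3F3B changed by -0.23 in the knockout and 0.44 in the parent (difference -0.66 ± 0.08, edgeR adjusted p = 9.09e-05), whereas H3F3A changed by -0.11 and -0.76 (difference 0.64 ± 0.08, adjusted p = 0.000103).

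Cell cycle genes moved with the drug in both genotypes. Of all tested genes, 7.3% rose and 9.28% fell in the knockout, and 16.8% rose and 17.1% fell in the parent. Of 26 S phase genes, 13 rose and 1 fell in the knockout and 15 rose and 4 fell in the parent, with summed levels of 6630 to 6970 CPM in knockout camptothecin, 5640 to 5680 in knockout DMSO, 6680 to 6820 in parent camptothecin and 5650 to 6300 in parent DMSO libraries. PCNA, the sliding clamp of DNA polymerase, rose by 0.60 ± 0.06 log2 in the knockout and by 0.29 ± 0.06 in the parent (edgeR adjusted p = 2.98e-06 and 0.00137). E2F1 and CDT1 rose more in the parent (1.11 and 0.66) than in the knockout (0.75 and 0.38). RFC4 changed by 0.24 in the knockout and -0.22 in the parent. The differences were -0.36 for E2F1, -0.28 for CDT1 and 0.46 for RFC4 (edgeR adjusted p = 0.021, 0.0507 and 0.047). With 1 library left out, these adjusted p reached 0.0799, 0.144 and 0.122. All 21 mitotic genes fell in both genotypes, with summed levels of 2450 to 2530 CPM in knockout camptothecin, 5130 to 5260 in knockout DMSO, 2560 to 2600 in parent camptothecin and 4960 to 6370 in parent DMSO libraries. CDC20, an activator of the anaphase-promoting complex, fell by 1.75 ± 0.06 in the knockout and by 1.34 ± 0.06 in the parent (edgeR adjusted p = 1.2e-11 and 3.97e-11). In the difference of responses, 6.32% of all genes were called, 1.84% higher and 4.47% lower. Of these lists, 2 S phase genes were higher and 1 lower, and 0 mitotic genes were higher and 1 lower (CDC20). These counts turned on parent DMSO replicate 1: without it, 3 S phase genes were higher and 4 lower, and 1 mitotic gene was higher and 10 lower, where 14.4% of genes were called. Those 10 included AURKA (-0.53, edgeR adjusted p = 1.42e-06), CENPE (-0.57, 4.05e-07) and CCNB2 (-0.45, 1.32e-05). Leaving out other libraries, from 0 to 4 S phase differences were called. The PCNA difference (0.31, edgeR adjusted p = 0.0463) was not called with a replicate block (adjusted p = 0.0593), no filter (0.0922) or total gene reads (0.152). With 1 library left out, its edgeR adjusted p ran from 0.00198 to 0.139, and most of those fits did not call it. The part of the cell cycle in the H1 responses was not tested.

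The patterns over the 4 groups were compared as the root mean square distance between centred log2 group means, among the 16150 tested genes that averaged 1 CPM or more, and without a test. HIST1H1B and HIST1H1E lay 0.059 apart and HIST1H1B and HIST1H1D 0.063, whereas HIST1H1A lay 1.0 to 1.7 from every other member. Outside the family, the nearest genes were SLC2A14 and the H3 gene HIST1H3C to both HIST1H1B (0.033 and 0.063) and HIST1H1E (0.030 and 0.050). SLC2A14 was scarce, at 1.03 CPM in knockout camptothecin, 2.64 in knockout DMSO, 2.37 in parent camptothecin and 2.69 in parent DMSO libraries. Its small distances are therefore uncertain. The core histone genes HIST1H3I (0.032) and HIST2H2BE (0.066) were nearest to HIST1H1C, and HIST1H2AG (0.052) and HIST2H2BE (0.055) to HIST1H1D. HIST1H1T had no close neighbour, the nearest being HIST1H2AL (0.40) and HIST1H2AB (0.42). H1FX was nearest to RP3-468K18.6 (0.056), which was also scarce at 1.68 to 2.76 CPM over the group means, and RP11-245P10.8 (0.060). HIST1H1A was nearest to LRRC2 (0.066) and to GZMA, the granzyme A gene of cytotoxic lymphocytes (0.20). LRRC2 averaged 0.778 CPM in knockout camptothecin, 0.842 in knockout DMSO, 11.04 in parent camptothecin and 11.96 in parent DMSO libraries.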

How the data were processed

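The authors deposited whole-number counts of reads per gene, over its exons and introns and over stretches unique to the gene, per the file headers, and exon counts were analysed. The submitters' processing notes name the hg19 build and the tools STAR 2.5.4a, Picard 2.9.2, Trimmomatic 0.39 and Trim Galore 0.6.2. Table names mark duplicates as removed; without molecular identifiers this compresses counts of abundant short transcripts. HIST1H1B had 368 reads per base in parent DMSO replicate 1 and 45.0 to 160 elsewhere. How strand was used, the annotation and the counting tool were not given in the sources used here; reads from antisense or overlapping genes cannot be told apart.

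Genes missing from a table were given 0 reads, up to 32 Y chromosome copies per table were left out, and 182 names listed at several places were treated as separate genes. In edgeR 4.0.16 (R 4.3.3), filterByExpr kept 23546 genes, all 7 members included, and 1 quasi-likelihood model with TMM scaling and 1 coefficient for each group covered all 12 libraries (common dispersion 0.0137). P-values were Benjamini-Hochberg adjusted over all tested genes, and genes were called below 0.05. SE is the log2 change divided by the square root of F, so it restates the test. CPM uses TMM-adjusted exon reads. The script was tested on simulated data. Intervals cover counting error only.

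A further linker histone gene is not reported here. The members, gene lists and tests were chosen with earlier results of these data known. Named genes were all members, SLFN11, up to 4 genes per list with the largest difference of responses among those called in any comparison, and the 2 genes nearest in pattern to each member. Alternatives were DESeq2 1.42.0, other scalings, filters and counts, a replicate block, smaller fits and each library left out. Same-numbered libraries did not deviate together.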

Additional observations from a re-analysis of the deposited data

Results flagged for a closer look

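For 6 of the 7 linker histone genes, the camptothecin response differed between knockout and parent cells by a test of the difference itself (edgeR quasi-likelihood, knockout minus parent). The differences on the log2 scale were -2.92 for HIST1H1T, -1.70 for HIST1H1C, -1.47 for HIST1H1D, -1.22 for HIST1H1B, -1.10 for HIST1H1E and -1.08 for H1FX. HIST1H1T, H1FX and HIST1H1C fell in the knockout and rose in the parent, whereas HIST1H1B, HIST1H1D and HIST1H1E did not rise in the parent.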

How the results depend on the processing

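Of 35 results (7 members in 5 comparisons), those called kept direction and call in every fit that left out 1 library. The 12 values that changed sign there were all of results not called. The 35 results include the genotype differences of HIST1H1A, which passed the filter only through the parent and so carry no test. Members called stayed at 4 (parent response), 6 (knockout response) and 6 (difference) in those fits. Besides HIST1H1A, HIST1H1T stayed called between the untreated genotypes, and the 6 other members stayed called between the treated genotypes. Genes called in all ran from 6445 to 8833, 2519 to 6640, 903 to 3503, 2385 to 4327 and 5004 to 9313 in the same order, against 7978, 3902, 1487, 3697 and 6583 with all libraries. Over the other alternatives, 262 of 272 member values kept direction and call, 2 were no longer called (HIST1H1E in the parent, H1FX in the knockout), 1 was newly called (HIST1H1C untreated) and 7 not called before changed sign. The replicate numbers share only a number: same-numbered libraries correlated at -0.032 to 0.043 over 18 pairs, and 6 of 12 libraries were closest to their own number. With a replicate block, members called stayed at 4 (parent response), 6 (knockout response) and 6 (difference). All genes called with that block were 7931, 3723, 1348, 3530 and 6453 over the 5 comparisons, in the order above.

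Scaling by library size alone gave 5967 calls in the knockout response, and fitting only the groups compared gave 5932 there and 2104 in the untreated comparison. Higher and lower calls under library size alone were 5731 and 2791 in the parent response (TMM 3961 and 4017), 4693 and 1274 in the knockout response (1718 and 2184), 860 and 996 in the difference (434 and 1053), 2861 and 1073 untreated (1945 and 1752) and 4982 and 2202 treated (3153 and 3430); it moved the median of all genes to 0.14 in the parent and 0.17 in the knockout. Signs that changed with it, all near 0, were HIST1H1A in the parent (0.11) and knockout (0.04), HIST1H1D in the parent (0.12), HIST1H1B (0.04), HIST1H1E (0.03) and HIST1H4A (0.0) untreated, HINFP (0.12), PTMA (0.02), PARP1 (0.14) and H3F3A (0.04) in the knockout and H2AFJ in the parent (0.02). Unique exon reads gave 0.0 for HIST1H1D in the parent and PARP1 in the knockout, fitting only the parent gave 0.0 for HIST1H1D, and total gene reads gave -0.01 for UPF1 in the knockout. Leaving out libraries, HIST1H1A ranged from -0.13 to 0.12 in the parent, -0.47 to 0.44 in the knockout and -0.45 to 0.46 in the difference, and HIST1H1D from -0.03 to 0.01 in the parent. Untreated, HIST1H1B ranged from -0.12 to 0.06, HIST1H1E from -0.13 to 0.04 and HIST1H4A from -0.29 to 0.07. HINFP ranged from -0.13 to 0.01, PARP1 from -0.03 to 0.01 and CBX5 from -0.05 to 0.15 in the knockout. The causes were not tested. The difference of responses has no fit on only the groups compared, since it uses all, and HIST1H1A did not pass the filter with only the knockout fitted. HIST1H1A in the knockout, at 4 to 11 reads a library, is limited by depth.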

Other observations

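Genes of the germ-line linker histones H1FNT, H1FOO and HILS1 had 0 to 2 exon reads in each library and were not tested.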
